A study of Mus musculus with 8 samples.

Results

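The genes described are 7 ligands of the tumor necrosis factor (TNF) family, Ltb, Lta, Tnf, Tnfsf14, Tnfsf8, Tnfsf10 and Tnfsf11, followed in thymic group 2 innate lymphoid cells (ILC2). They were taken by symbol from a table of 50686 genes, and each symbol matched 1 row. Over the whole series 13644 genes had enough counts to be tested, and all 7 ligand genes were among them. The cells came from the thymus of C57BL/6 mice that carry a plck-Id1 transgene, in which the proximal Lck promoter, known for its activity in early T cell development, drives Id1, an inhibitor of E protein transcription factors. They had been grown with IL-33, IL-25, IL-7 and a further factor that the labels write as ILC2, infected with the MIGR1 retrovirus and sorted for GFP. The virus carried GFP with E47-ER, the E protein E47 fused to an estrogen receptor domain that holds it inactive until drug is added, or GFP alone. Both kinds of cells then received 4-hydroxytamoxifen, for 4 or 16 h. The 4 groups, each with 2 libraries of bulk RNA, are thus E47-ER cells and GFP cells at 4 h, and E47-ER cells and GFP cells at 16 h. All groups carry the Id1 transgene and all received the drug, and no E47-ER library without drug was analysed here. Nothing in the labels ties the 2 libraries of a group to separate animals or cultures, and the p values therefore cover library-to-library spread alone, part or all of which may be technical.

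Libraries held 8813782 to 18677675 counts. The library of GFP cells at 16 h, replicate 2, stood apart, with the lowest total, a mean correlation of 0.954 with the other libraries against 0.980 to 0.983 for the rest, and a scaling factor of 0.854 against 1.01 to 1.03. Results that rest on it are given with and without it. Esr1, whose reads can come from the fused receptor domain, had a mean level of 49.1 CPM (counts scaled to library size) in E47-ER cells at 4 h against 0.264 in GFP cells at 4 h, and of 49.1 CPM in E47-ER cells at 16 h against 0.735 in GFP cells at 16 h. Tcf3, the gene of E47, averaged 158 CPM in E47-ER cells at 16 h against 77.6 in GFP cells at 16 h (log2 fold change 1.02, adjusted p = 0.0238), and Id1 averaged 74.5 CPM against 21.9 (1.73, adjusted p = 0.0551, and 0.0240 averaged over both times). The median log2 fold change of Esr1, Tcf3 and Id1 at 16 h was 1.73, and 1.30 without the library that stood apart. All 12 ILC2 markers were detected, with a summed level of 19405 to 21786 CPM in E47-ER libraries and 24443 to 30454 CPM in GFP libraries. Among them Rora was called higher at 16 h and averaged over both times (log2 fold change 0.93), and Il17rb averaged over both times (0.72). Most of the 12 went the other way, with 8 below 0 at 16 h and 8 averaged over both times, down to -0.96 and -0.81. By edgeR 0 were called lower at an adjusted p under 0.05. Counted in either direction, DESeq2 called 7 of the 12 at each, beside 1052 and 734 of all 13644 tested genes. An unadjusted p under 0.05 in edgeR, in either direction, was found for 8 of the 12 at each, beside 3273 and 2655 of all. Voom called 0 at 16 h and 6 averaged over both times, beside 52 and 473 of all. The list's median was -0.24 at 4 h, both with and without the library that stood apart. At 16 h it was -0.26, and -0.11 without that library. Averaged over both times it was -0.25, and -0.17 without that library.

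TNF family ligands are made as membrane proteins that assemble in threes, act on receptors of neighbouring cells and in part are shed. Lymphotoxin beta holds lymphotoxin alpha at the cell surface, and the complex acts on the lymphotoxin beta receptor of stromal cells, a signal known for building lymph nodes and for shaping the thymic medulla. Most of the receptors feed into NF-kB, and those with a death domain can also lead to cell death. E proteins such as E47 bind the E box, a short DNA word, and Id1 keeps them from doing so.

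Promoter windows of 4 of the genes are printed because Ltb, Tnf and Tnfsf14 rose in E47-ER cells and Tnfsf10 did not pass the test. Each runs from 250 bases before to 50 bases after the RefSeq gene start (GRCm38.p6), 5′ to 3′ on the gene's strand, and capitals mark every E box of the form CANNTG, which reads the same on both strands. The windows are chr17:35194257-35194556 on the plus strand for Ltb, chr17:35201958-35202257 on the minus strand for Tnf, chr17:57194132-57194431 on the minus strand for Tnfsf14 and chr3:27316827-27317126 on the plus strand for Tnfsf10.
Ltb: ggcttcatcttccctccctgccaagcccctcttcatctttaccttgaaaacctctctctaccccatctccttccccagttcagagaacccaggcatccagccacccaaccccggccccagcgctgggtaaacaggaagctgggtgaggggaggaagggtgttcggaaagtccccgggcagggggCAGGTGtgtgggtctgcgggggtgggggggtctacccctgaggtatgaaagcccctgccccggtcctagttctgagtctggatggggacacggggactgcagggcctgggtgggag
Tnf: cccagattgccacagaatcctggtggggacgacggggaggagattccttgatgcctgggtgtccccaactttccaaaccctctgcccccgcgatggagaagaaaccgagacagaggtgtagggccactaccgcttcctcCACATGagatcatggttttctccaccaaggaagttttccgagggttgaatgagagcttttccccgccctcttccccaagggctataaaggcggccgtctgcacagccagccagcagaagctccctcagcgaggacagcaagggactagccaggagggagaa
Tnfsf14: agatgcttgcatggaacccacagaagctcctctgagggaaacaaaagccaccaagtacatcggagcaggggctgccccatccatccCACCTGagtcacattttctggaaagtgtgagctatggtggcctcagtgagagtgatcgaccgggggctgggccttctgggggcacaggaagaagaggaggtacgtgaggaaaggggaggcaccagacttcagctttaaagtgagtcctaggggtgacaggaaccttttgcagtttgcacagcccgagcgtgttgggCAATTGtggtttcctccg
Tnfsf10: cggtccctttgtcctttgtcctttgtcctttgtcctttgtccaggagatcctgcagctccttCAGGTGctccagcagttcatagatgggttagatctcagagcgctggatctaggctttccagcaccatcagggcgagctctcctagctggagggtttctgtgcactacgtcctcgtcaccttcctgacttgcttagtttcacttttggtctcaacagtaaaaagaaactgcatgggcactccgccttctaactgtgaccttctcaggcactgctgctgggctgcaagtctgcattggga
The form CANNTG stood in the windows of 6 of the 7 ligand genes, all but Tnfsf8, and in 72.3% of 32851 RefSeq promoter windows of the same length. The form CAGGTG, or CACCTG on the other strand, stood in 3 of the 7, in Ltb 66 bases, in Tnfsf14 164 bases and in Tnfsf10 188 bases before the start, against 20.2% of all windows. These distances are from the RefSeq start. The gene coordinates given below are from GENCODE and start elsewhere for Ltb, Tnfsf14 and Tnfsf10. By the GENCODE coordinates the Ltb match lies just inside the gene. The form CAGCTG stood in Lta alone among the 7, 123 bases before the start, against 16.3% of all windows. Both of these forms are also counted under CANNTG. Of the printed windows, CAGGTG or CACCTG was thus in those of Ltb and Tnfsf14, which rose, and of Tnfsf10, which did not pass the test, and it was not in that of Tnf, which rose. Tnfsf8, whose window held no CANNTG, was called higher averaged over both times. A match describes the letters of the window and is not a bound site.

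Ltb, which encodes lymphotoxin beta, had the highest level per length of the 7 in every group and was higher in E47-ER cells at both times. The gene lies on chromosome 17 (GRCm38, 35194439 to 35196320, plus strand; ENSMUSG00000024399). At 4 h it stood at 46.1 and 47.6 CPM in E47-ER cells, against 24.6 and 17.8 CPM in GFP cells. At 16 h it stood at 109 and 111 CPM in E47-ER cells, against 30.3 and 31.6 CPM in GFP cells. At each time both E47-ER libraries lay above both GFP libraries, and the E47-ER libraries at 16 h lay far above all others. The log2 fold change, E47-ER over GFP, was 1.15 ± 0.165 (SE) at 4 h (adjusted p = 0.0429, edgeR quasi-likelihood test with Benjamini-Hochberg adjustment over 13644 genes) and 1.83 ± 0.167 at 16 h (adjusted p = 0.00286). Averaged over both times it was 1.49 ± 0.117 (adjusted p = 0.000741), a 2.80-fold higher level. Since this is RNA of whole cell populations, a change in the number of cells that express a gene and a change in RNA per cell cannot be told apart.

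The 4 h call of Ltb was close to the threshold: it held in 2 of the 8 fits that each leave out 1 library, those without a GFP library of 16 h, with log2 fold changes of 0.93 to 1.40 and adjusted p up to 0.497. The 16 h call held in 7 of these 8 fits, with fold changes of 1.82 to 1.85, and was lost without replicate 2 of E47-ER cells at 16 h (adjusted p = 0.0502, the highest of the 8). The call averaged over both times held in 8 of 8, with an adjusted p of at most 0.00895.

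Lta encodes lymphotoxin alpha, which is secreted as a homotrimer or joins lymphotoxin beta at the membrane. It lies on chromosome 17 (35203165 to 35205351, minus strand; ENSMUSG00000024402). It stood at 24.3 and 22.1 CPM in E47-ER cells at 4 h, against 15.5 and 6.29 CPM in GFP cells at 4 h. At 16 h it stood at 21.2 and 18.6 CPM in E47-ER cells, against 13.1 and 10.4 CPM in GFP cells. Each pair of E47-ER libraries was above its pair of GFP libraries, but the GFP libraries at 4 h differed widely between themselves. The log2 fold change of 1.10 ± 0.355 at 4 h, of 0.74 ± 0.361 at 16 h and of 0.92 ± 0.253 averaged over both times did not pass the test (adjusted p = 0.573, 0.241 and 0.113). The average passed in 3 of 17 alternative fits, with DESeq2 (0.92, adjusted p = 0.0109), with no filter on low counts (0.95, adjusted p = 4.14e-07) and without GFP replicate 1 of 4 h (1.32, adjusted p = 0.0239). Over these 17 fits its adjusted p ran from 4.14e-07 to 0.364.

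Tnf encodes TNF itself, a cytokine made as a membrane protein and shed by ADAM17. It lies between Ltb and Lta on chromosome 17 (35199381 to 35202007, minus strand; ENSMUSG00000024401). At 4 h it stood at 18.1 and 20.1 CPM in E47-ER cells, against 10.5 and 8.14 CPM in GFP cells. At 16 h it stood at 25.9 and 28.3 CPM in E47-ER cells, against 9.74 and 12.0 CPM in GFP cells. The groups did not overlap at either time, and the E47-ER libraries at 16 h were the highest. On the log2 scale E47-ER over GFP was 1.04 ± 0.185 at 4 h, which did not pass the test (adjusted p = 0.0986), and 1.33 ± 0.188 at 16 h, which did (adjusted p = 0.0171). Averaged over both times it was 1.19 ± 0.132 (adjusted p = 0.00380). The 16 h call was lost without any 1 of the 4 E47-ER libraries (adjusted p up to 0.215), while the average passed in 8 of 8 such fits (adjusted p of at most 0.0363).

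Tnfsf14 encodes LIGHT, which shares the lymphotoxin beta receptor with the lymphotoxin complex and also binds HVEM, the product of Tnfrsf14. It lies elsewhere on chromosome 17 (57189492 to 57194177, minus strand; ENSMUSG00000005824). Its level at 4 h was 25.5 and 25.1 CPM in E47-ER cells, against 15.7 and 9.83 CPM in GFP cells. Its level at 16 h was 44.7 and 42.5 CPM in E47-ER cells, against 14.2 and 9.45 CPM in GFP cells. Again no GFP library reached an E47-ER library of its time. The difference, as a log2 fold change, was 0.99 ± 0.251 at 4 h (adjusted p = 0.354) and 1.85 ± 0.258 at 16 h (adjusted p = 0.0168), so only the 16 h value passed the test. The average of both times was 1.42 ± 0.180 (adjusted p = 0.00610). As with Tnf, the 16 h call was lost without any 1 of the 4 E47-ER libraries (adjusted p up to 0.162), and the average passed in 8 of 8 such fits (adjusted p of at most 0.0442).

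Tnfsf8 encodes the ligand of CD30, and lies on chromosome 4 (63831308 to 63861347, minus strand; ENSMUSG00000028362). At 4 h it stood at 41.1 and 37.6 CPM in E47-ER cells, against 31.5 and 18.9 CPM in GFP cells. At 16 h it stood at 45.9 and 47.8 CPM in E47-ER cells, against 22.8 and 14.6 CPM in GFP cells. The E47-ER libraries were above the GFP libraries at both times, and at 4 h the gap between the groups was smaller than the distance between the GFP libraries. E47-ER over GFP came to a log2 fold change of 0.65 ± 0.266 at 4 h (adjusted p = 0.818) and 1.31 ± 0.274 at 16 h (adjusted p = 0.0667), neither past the threshold. The average of both times, 0.98 ± 0.191, passed (adjusted p = 0.0406), but in leave-one-out fits it passed only in the 2 of 8 without a GFP library of 16 h (adjusted p up to 0.200).

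Tnfsf10 and Tnfsf11 did not pass the test in any comparison or alternative fit. Tnfsf10, on chromosome 3 (27317028 to 27342427, plus strand; ENSMUSG00000039304), encodes TRAIL, a ligand of death receptors. It stood at 27.9 and 26.4 CPM in E47-ER cells at 4 h, against 44.4 and 27.1 CPM in GFP cells at 4 h, and at 22.7 and 22.6 CPM in E47-ER cells at 16 h, against 30.8 and 21.4 CPM in GFP cells at 16 h. At 16 h the E47-ER libraries lay between the GFP libraries, and the log2 fold change averaged over both times was -0.30 ± 0.179 (adjusted p = 0.358).

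Tnfsf11, on chromosome 14 (78277445 to 78308043, minus strand; ENSMUSG00000022015), encodes RANKL, which is known for driving the growth of medullary thymic epithelium and of osteoclasts. It had the fewest counts of the 7, 900 over all libraries against 1962 to 6343 for the others. At 4 h it stood at 5.06 and 7.63 CPM in E47-ER cells, against 7.02 and 9.04 CPM in GFP cells. At 16 h it stood at 7.01 and 7.27 CPM in E47-ER cells, against 8.67 and 9.72 CPM in GFP cells. The E47-ER libraries were below both GFP libraries at 16 h and overlapped with them at 4 h. The log2 fold change averaged over both times was -0.35 ± 0.173 (adjusted p = 0.296).

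**Figure D1:**
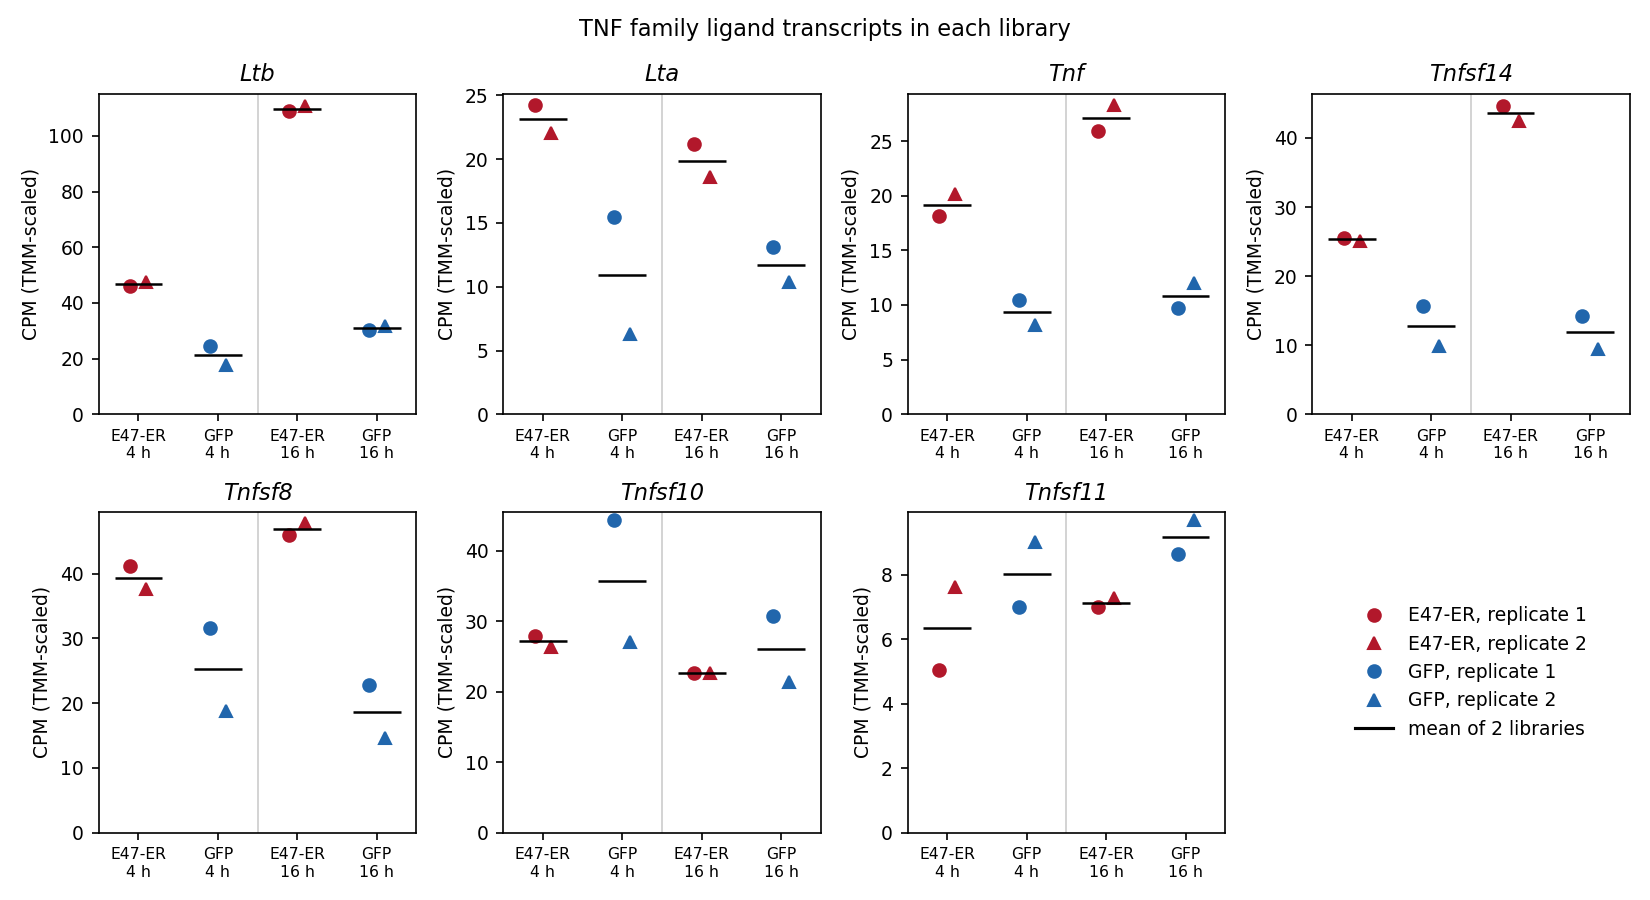
Level of each of the 7 ligand transcripts in each library, in CPM after TMM scaling (vertical axes, each from 0), for E47-ER and GFP cells at 4 h and 16 h. Points are libraries (circle replicate 1, triangle replicate 2) and lines are means of 2. Ltb reaches 109 and 111 CPM in E47-ER cells at 16 h, against 30.3 and 31.6 CPM in GFP cells, and Tnfsf11 stays below 10 CPM in all libraries.

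Counted together, 1 of the 7 ligand genes (Ltb) was called higher at 4 h, where 0.271% of all tested genes were. At 16 h 3 of the 7 (Ltb, Tnf and Tnfsf14) were called higher, against 1.25% of all tested genes. Averaged over both times 4 of the 7 were (these and Tnfsf8), against 1.82%. None of the 7 was called lower, against 0.0147% of all tested genes at 4 h, 0.337% at 16 h and 0.638% averaged over both times. The median log2 fold change of the 7 was 0.99 at 4 h, 1.31 at 16 h and 0.98 averaged over both times, while that of all tested genes lay at -0.0043, -0.0057 and -0.012. In 5 of the 7, all but Tnfsf10 and Tnfsf11, every E47-ER library was above every GFP library at 4 h, as in 22.4% of all tested genes, and the same 5 were above at 16 h, as in 27.8%. In these 5 every E47-ER library of either time was also above every GFP library of either time, as in 7.86% of all tested genes. The reverse order, with both E47-ER libraries below both GFP libraries, was seen for Tnfsf11 at 16 h, as in 26.6% of all tested genes. The 7 genes were chosen with earlier results of these data known. A share above that of all tested genes may therefore in part be built into the choice.

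**Figure D2:**
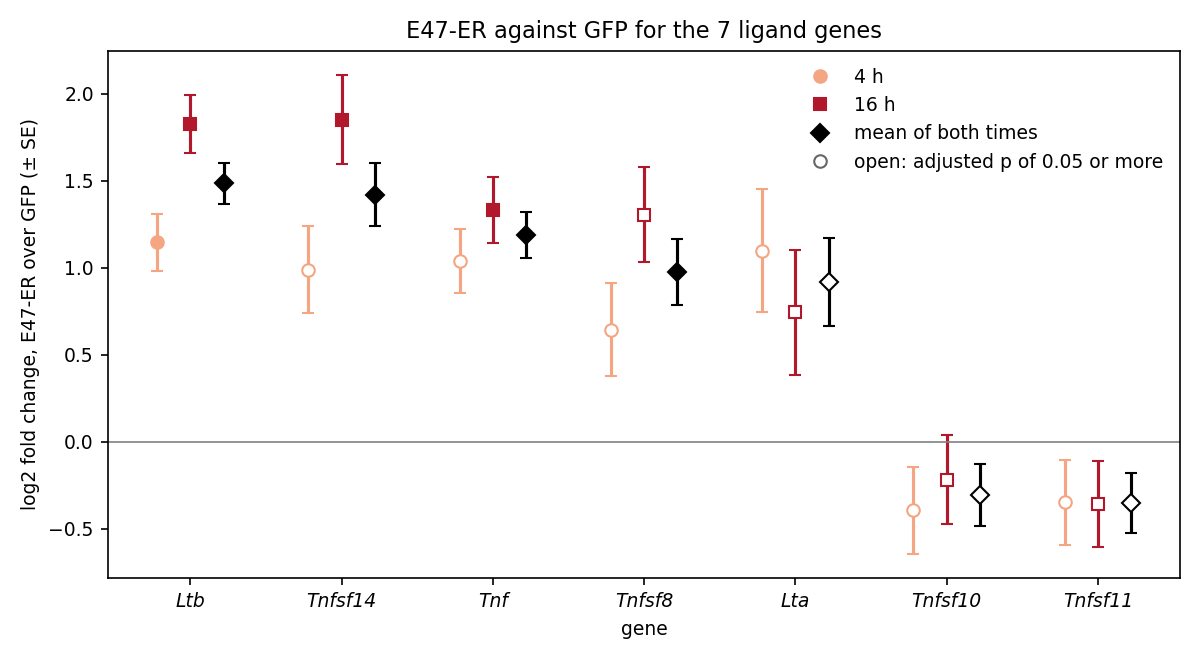
Log2 fold change of E47-ER over GFP cells (vertical axis) for each ligand gene at 4 h, at 16 h and as the mean of both, with bars of 1 SE from the edgeR fit. Filled symbols have an adjusted p under 0.05, and the filled ones are Ltb at 4 h, Ltb, Tnfsf14 and Tnf at 16 h, and these and Tnfsf8 for the mean.

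Without GFP replicate 2 of 16 h, the library that stood apart, the model called more genes: 3 of the 7 ligand genes at 4 h (2.64% of all tested genes higher), 3 at 16 h (4.39%) and 4 averaged over both times (7.36%). The genes at 16 h and averaged over both times were the same as with it, and at 4 h Tnf and Tnfsf14 joined Ltb. Without it the log2 fold changes at 16 h were 1.85 for Ltb, 1.47 for Tnf, 1.61 for Tnfsf14, 1.03 for Tnfsf8, 0.59 for Lta, -0.45 for Tnfsf10 and -0.29 for Tnfsf11, against 1.83, 1.33, 1.85, 1.31, 0.74, -0.22 and -0.36 with it. The size for Tnfsf10, which passed in neither fit, thus moved most in proportion.

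Whether the E47-ER effect differed between the times was tested as the 16 h effect minus the 4 h effect. It was called for none of the 7 (edgeR, DESeq2 and voom 0), and for 0% of all tested genes. The difference was 0.68 ± 0.231 for Ltb (unadjusted p = 0.0183, adjusted p = 0.699) and 0.86 for Tnfsf14 (unadjusted p = 0.0413, adjusted p = 0.699), and these were the 2 of the 7 with an unadjusted p under 0.05, as had 671 of 13644 tested genes. Both were called in 1 of the 8 leave-one-out fits, that without GFP replicate 1 of 16 h, at 0.67 for Ltb (adjusted p = 0.00938 in a range of 0.00938 to 0.947 over 17 alternative fits) and 1.23 for Tnfsf14 (adjusted p = 0.00386 in a range of 0.00386 to 0.947). In that fit the library that stood apart is the only one of its group. That 3 ligand genes passed at 16 h and 1 at 4 h is therefore not shown, with all 8 libraries, to be a difference between the times.

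Within E47-ER cells, Ltb stood at 109 and 111 CPM at 16 h against 46.1 and 47.6 CPM at 4 h, Tnfsf14 at 44.7 and 42.5 CPM against 25.5 and 25.1 CPM, and Tnf at 25.9 and 28.3 CPM against 18.1 and 20.1 CPM. Of the 7 ligand genes, 5 had a log2 fold change above 0 for 16 h over 4 h, as had 6885 of 13644 tested genes. Lta (-0.22) and Tnfsf10 (-0.26) went the other way. The log2 fold change, 16 h over 4 h, was 1.23 ± 0.162 for Ltb (adjusted p = 0.279), 0.78 for Tnfsf14 (adjusted p = 0.962) and 0.50 for Tnf (adjusted p = 0.981), so none of the 7 was called, and 0.0147% of all tested genes were. DESeq2 called 1 of the 7 and 24 of 13644 tested genes, voom with quality weights called 3 of the 7 and 377 of all, and an unadjusted p under 0.05 in edgeR was found for 3 of the 7 and 695 of all. Without GFP replicate 2 of 16 h, which is not part of this contrast but enters the shared estimate of spread, Ltb (1.21), Tnfsf14 (0.77) and Tnf (0.49) were called, against 1.74% of all tested genes. Within GFP cells no ligand gene was called between 16 h and 4 h, and 0% of all tested genes were. By edgeR 1 of the 7, Ltb (0.55), had an unadjusted p under 0.05 there, as had 1238 of 13644 tested genes, and DESeq2 and voom called 0. Comparisons of times and of constructs share their libraries, so these values are not independent of those above.

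Levels were compared between ligand genes as CPM per kilobase of exon. In E47-ER cells at 16 h the order was Ltb (72.4 ± 0.812, SD of 2 libraries), Tnfsf14 (23.6), Tnf (16.5), Lta (14.4), Tnfsf8 (12.3), Tnfsf10 (4.30) and Tnfsf11 (3.19), and no neighbours overlapped. In GFP cells at 16 h Ltb (20.4) and Lta (8.49) came first by mean, and each gene from Tnf (6.63) through Tnfsf14 (6.41), Tnfsf10 (4.96) and Tnfsf8 (4.91) to Tnfsf11 (4.11) overlapped with its neighbour. Lta did not overlap with Tnf there, but its lower library (7.51) lay below the higher library of Tnfsf14 (7.71). In E47-ER cells at 4 h the order was Ltb (30.9), Lta (16.8), Tnfsf14 (13.7), Tnf (11.7), Tnfsf8 (10.3), Tnfsf10 (5.16) and Tnfsf11 (2.84), again without overlap. In GFP cells at 4 h Ltb (14.0) led and Tnfsf11 (3.59) was last, and the 5 between, from Lta (7.87) to Tnf (5.68), overlapped. Ltb thus led in all 4 groups, and the neighbours below it lay apart throughout the order in E47-ER cells at both times but not in GFP cells at either time.

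Ltb made up 49.0 and 49.7% of the summed level per length of the 7 ligand genes in E47-ER cells at 16 h, against 34.0 and 39.3% in GFP cells at 16 h. At 4 h its share was 33.4 and 34.3% in E47-ER cells, against 26.1 and 28.9% in GFP cells. The share was above that of the GFP libraries of the same time in all 4 E47-ER libraries.

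Lta, Tnf and Ltb lie side by side in the major histocompatibility region, within 10913 bases. Of the other genes within 50000 bases on either side, 6 were tested (Bag6, Prrc2a, Lst1, Nfkbil1, Atp6v1g2 and Ddx39b). By edgeR 0 of these 6 were called at 4 h, at 16 h or averaged over both times. At an unadjusted p under 0.05 there were 0 at 4 h, 1 at 16 h and 1 averaged over both times, beside 794, 3273 and 2655 of all 13644 tested genes, and DESeq2 and voom called 0. Their log2 fold changes ran from -0.06 to 0.58 at 4 h and from -0.42 to 0.77 at 16 h. Both ends at 16 h moved without the library that stood apart, to 0.36 for Lst1 from -0.42 and to 0.47 for Atp6v1g2 from 0.77.

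The receptors of these ligands were taken as a list of 11, of which 10 were tested. Of the 10, 1 was called higher at 16 h, where 1.25% of all tested genes were, and averaged over both times, where 1.82% were. At 4 h edgeR called 0, with 1 at an unadjusted p under 0.05, as had 794 of 13644 tested genes, and DESeq2 and voom called 0. The list's median log2 fold change was 0.18 at 4 h and 0.17 at 16 h. The one called was Tnfrsf11b, which encodes osteoprotegerin, a secreted decoy for RANKL and TRAIL. It stood at 6.88 and 7.68 CPM in E47-ER cells at 16 h, against 2.28 and 1.73 CPM in GFP cells at 16 h. At 4 h it stood at 5.12 and 4.03 CPM in E47-ER cells, against 2.21 and 2.69 CPM in GFP cells. The groups did not overlap, and the log2 fold change at 16 h was 1.82 ± 0.266 (adjusted p = 0.0192), though in leave-one-out fits it passed only in the 2 of 8 without a GFP library of 16 h. Averaged over both times it was 1.36 ± 0.184 (adjusted p = 0.00873), and it passed in 4 of 8 such fits. It lost this call without either GFP library of 4 h, without E47-ER replicate 1 of 4 h or without E47-ER replicate 2 of 16 h (adjusted p up to 0.0710). Without the library that stood apart its 4 h value, 0.90, also passed, and averaged over both times Tnfrsf1a (0.49), which encodes the first TNF receptor, joined it.

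The receptors with the highest levels were Tnfrsf8, which encodes CD30, the receptor of the Tnfsf8 product, and Tnfrsf1b, which encodes the second TNF receptor. Per kilobase of exon Tnfrsf8 averaged 309 CPM in E47-ER cells at 16 h and 268 CPM in GFP cells at 16 h, and Tnfrsf1b averaged 103 and 97.2 CPM in the same groups. Neither passed the test at 16 h, with log2 fold changes of 0.21 ± 0.192 (adjusted p = 0.506) and 0.08 ± 0.121 (adjusted p = 0.682). Tnfrsf8 was therefore far above its own ligand gene Tnfsf8, at 12.3 CPM per kilobase in E47-ER cells and 4.91 in GFP cells. Ltbr, the lymphotoxin beta receptor gene, was low, with 1.80 and 1.96 CPM in E47-ER cells at 16 h, against 1.95 and 2.66 CPM in GFP cells at 16 h, and it did not pass the test.

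**Figure D3:**
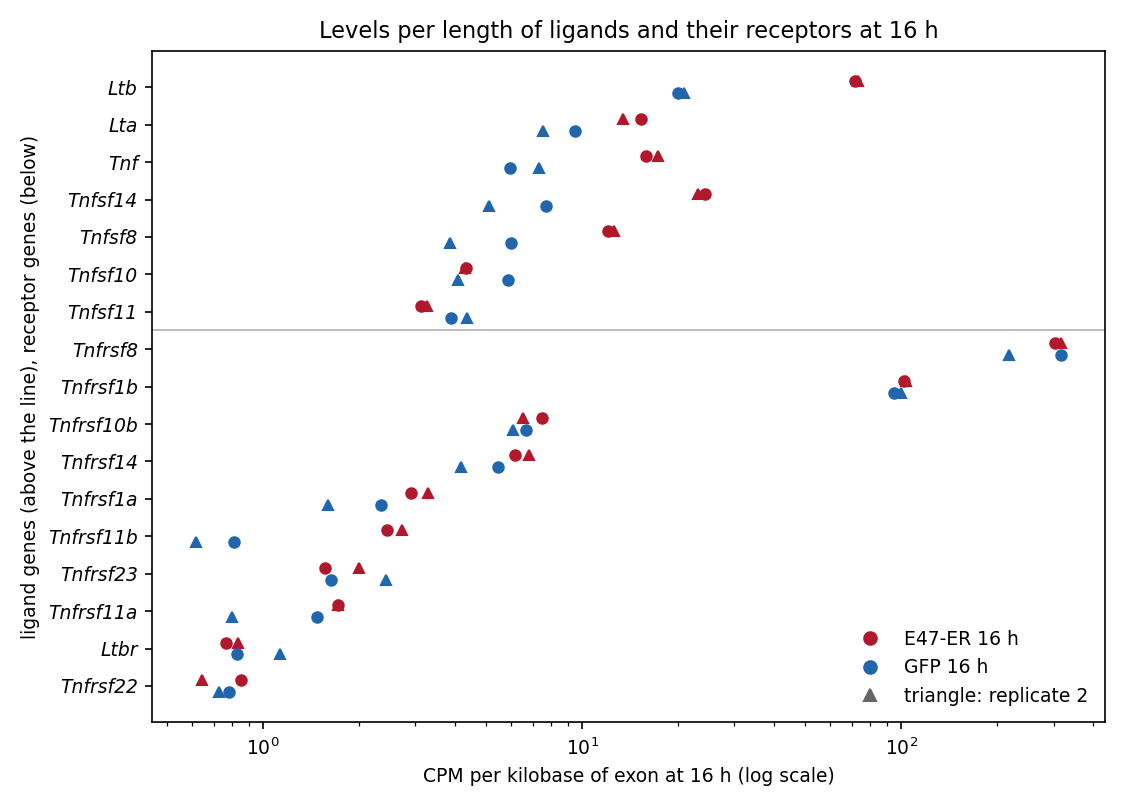
Level per length of the 7 ligand genes and the 10 tested receptor genes at 16 h, in CPM per kilobase of exon on a log axis (horizontal), with 1 point per library. Among the ligands Ltb is highest, at a mean of 72.4 in E47-ER cells and 20.4 in GFP cells, while the receptor gene Tnfrsf8 lies above all ligands in both groups.

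Of 11 other TNF family ligand genes, 3 were tested, and by edgeR 0 were called at 4 h, at 16 h or averaged over both times. An unadjusted p under 0.05 was found for 1 of them at 4 h, 0 at 16 h and 2 averaged over both times, beside 794, 3273 and 2655 of all 13644 tested genes, and DESeq2 and voom called 0. Tnfsf9, which encodes the ligand of 4-1BB, had log2 fold changes of -0.15 at 4 h and -0.60 at 16 h, and Tnfsf12, which encodes TWEAK, had -0.39 and -0.78. Without the library that stood apart, the 16 h values were -0.03 for Tnfsf9 and -0.29 for Tnfsf12. Tnfsf4, which encodes the OX40 ligand and is named after its values were seen, stood at 1.47 and 1.58 CPM in E47-ER cells at 4 h, against 0.443 and 0.634 CPM in GFP cells at 4 h (log2 fold change 1.47 ± 0.382, adjusted p = 0.372). Tnfsf13, Tnfsf13b, Tnfsf15, Tnfsf18, Fasl, Cd40lg and Cd70 had 1 to 33 counts over all 8 libraries and were not tested, and Eda had none. Fas ligand and CD40 ligand were thus not measurable at this depth.

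Of 30 genes of TNF receptor signalling and NF-kB, by edgeR 0 were called at 4 h, at 16 h or averaged over both times. At an unadjusted p under 0.05 there were 0 of the 30 at 4 h, 9 at 16 h and 5 averaged over both times, beside 794, 3273 and 2655 of all 13644 tested genes. DESeq2 called 0 of the 30 at 4 h, 4 at 16 h and 3 averaged over both times, beside 122, 1052 and 734 of all, and voom called 0. The unadjusted shares at 16 h and averaged over both times were near those of all genes. The list's median log2 fold change was 0.04 at 4 h and 0.20 at 16 h. The most abundant members, Nfkbia, the inhibitor of NF-kB that NF-kB itself induces, and Nfkb1, a subunit of NF-kB, had log2 fold changes at 16 h of -0.61 ± 0.236 (adjusted p = 0.180) and 0.24 ± 0.165 (adjusted p = 0.371). Nfkbia stood at 375 and 384 CPM in E47-ER cells at 16 h, against 421 and 741 CPM in GFP cells at 16 h, where the high value is that of the library that stood apart. Without that library its log2 fold change at 16 h was -0.15, and the list's median was 0.07. With all 8 libraries 25 of the 30 lay above 0 at 16 h and 5 below, beside 6768 and 6876 of all. With each library left out in turn, Tnfaip3 ran from 0.42 to 0.99 at 16 h and Nfkbie from 0.54 to 0.62. In the same fits Birc2 ran from 0.58 to 0.79 and Tab2 from 0.45 to 0.48. Like the rest of the list, these genes were not called by edgeR with all 8 libraries.

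Of 15 genes that shed TNF ligands or control their mRNA, 1 was called higher at 16 h, where 1.25% of all tested genes were, and averaged over both times, where 1.82% were. At 4 h edgeR called 0, with 2 at an unadjusted p under 0.05, and DESeq2 and voom called 1 each, beside 794, 122 and 401 of all 13644 tested genes. The called gene was Zfp36l2, which encodes an RNA-binding protein of the family that speeds the decay of AU-rich messages. It stood at 464 and 474 CPM in E47-ER cells at 16 h, against 253 and 210.4 CPM in GFP cells at 16 h, and the groups did not overlap. The levels at 4 h were 422 and 442 CPM in E47-ER cells, against 248 and 262 CPM in GFP cells, again without overlap. Its log2 fold change was 0.76 at 4 h (adjusted p = 0.0986), 1.02 ± 0.136 at 16 h (adjusted p = 0.0139) and 0.89 averaged over both times (adjusted p = 0.00316), where it passed in 8 of 8 leave-one-out fits, against 2 of 8 at 16 h, those without a GFP library of 16 h. Adam17, the sheddase of TNF, had log2 fold changes of 0.18 at 4 h and 0.39 at 16 h, neither past the threshold. Zfp36, which encodes tristetraprolin and acts on the Tnf message, had -0.41 at 4 h and 0.01 at 16 h, neither past the threshold. Without the library that stood apart the 4 h values were 0.76 for Zfp36l2 and -0.41 for Zfp36.

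**Figure D4:**
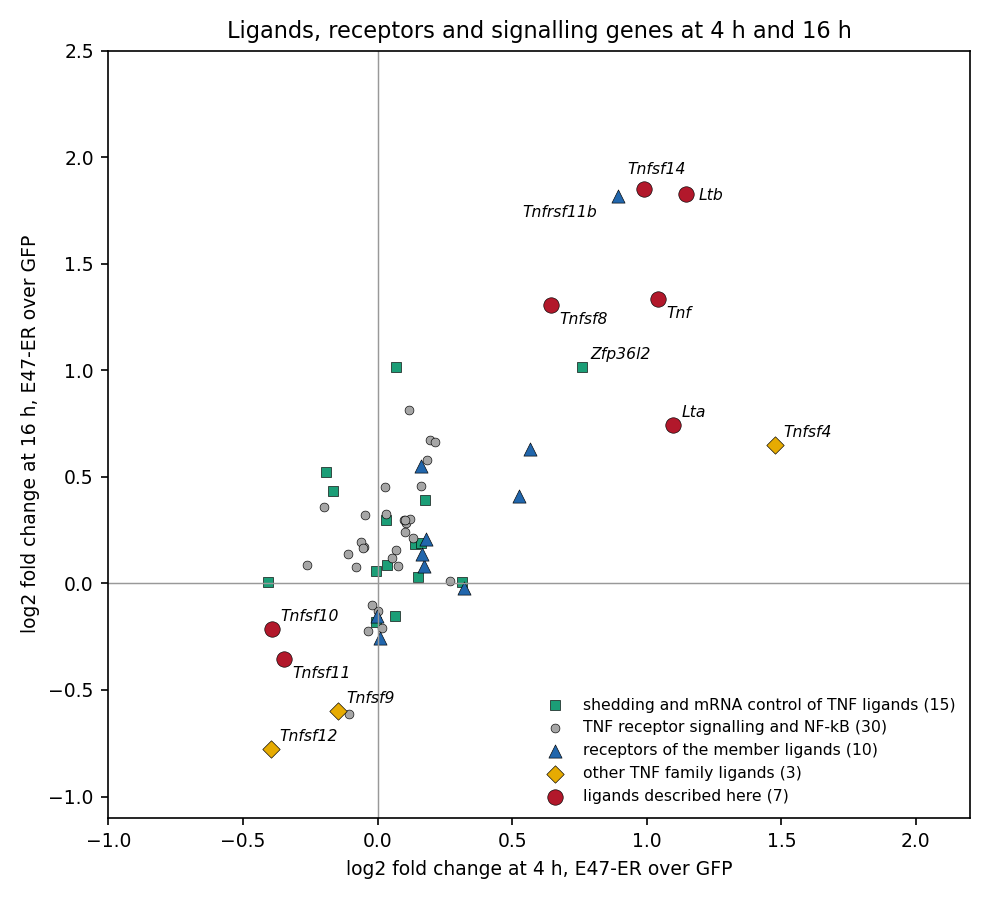
Log2 fold change of E47-ER over GFP cells at 4 h (horizontal axis) and at 16 h (vertical axis) for the tested genes of 5 lists, 1 point per gene. Ltb, Tnfsf14, Tnf, Tnfsf8 and Lta lie to the upper right with Tnfrsf11b and Tnfsf4, and Tnfsf10 and Tnfsf11 lie below 0 on both axes.

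The 5 genes with the profile closest to each called ligand gene over the 8 libraries were found by the root mean square difference of centred log2 CPM. For Ltb they were Cxxc5 (0.21), Cd7 (0.22), Trbc2 (0.23), Cd101 (0.24) and Cd163l1 (0.28). For Tnf they were Cacnb1 (0.07), Acpp, Fam117a, Tapbpl and Cd163l1, and for Tnfsf14 they were Pipox (0.17), Cxxc5, Ahcyl2, Lax1 and Olfr60. For Tnfsf8 they were Cnr2 (0.14), Igf2r, Ablim1, Tbc1d2 and Jaml. Cxxc5 was thus on the lists of Ltb and Tnfsf14, and Cd163l1 on those of Ltb and Tnf. This is a description over 8 libraries that share the same groups.

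Lymphotoxin, TNF and LIGHT are also made by other cells, so markers of these were read in the same libraries. The 9 markers of ILC3 and lymphoid tissue inducer cells summed to 74.7 to 80.7 CPM in E47-ER libraries and 67.6 to 82.4 CPM in GFP libraries, with Ncr1 at 0. The 7 T cell markers summed to 37.1 to 48.7 CPM in E47-ER libraries and 32.0 to 38.6 CPM in GFP libraries, and the 5 B cell markers to 6.55 to 8.15 and 6.45 to 14.2 CPM. Over both times these sums overlapped between the constructs. Of the ILC3 and lymphoid tissue inducer markers 6 were tested. Their median log2 fold change was 0.97 at 4 h and 0.35 at 16 h. Single values ran from -0.03 to 2.33 at 4 h and from -0.14 to 4.33 at 16 h. By edgeR 0 of the 6 were called at 4 h, at 16 h or averaged over both times. DESeq2 called 1 averaged over both times and voom 1 at 4 h, beside 734 and 401 of all 13644 tested genes. At 16 h alone the T cell sum was higher in E47-ER libraries, 43.3 and 48.7 CPM against 32.0 and 38.6 CPM in GFP libraries. Cd3e was called higher at 16 h without the library that stood apart, and not with it. The 8 myeloid markers summed to 10.8 to 16.9 CPM in E47-ER libraries and 5.92 to 8.34 CPM in GFP libraries, and the 5 thymic epithelial markers to 10.3 to 22.7 and 5.12 to 9.05 CPM, nearly all of it Epcam and with Foxn1 at 0. Epcam itself passed the test at 16 h, with 22.2 and 20.4 CPM in E47-ER cells, against 5.98 and 8.79 CPM in GFP cells (log2 fold change 1.56 ± 0.259, adjusted p = 0.0285). Both of these sums were higher in all E47-ER libraries. The 7 markers of ILC1 and NK cells summed to 5308 to 7948 CPM in E47-ER libraries and 2923 to 7524 CPM in GFP libraries, mostly Gzma. The value of 7524 is that of the library that stood apart, and the other 3 GFP libraries, at 2923 to 3539 CPM, lay below every E47-ER library. Without that library Klrk1 and Gzma were called higher averaged over both times, and with it neither was. The part of the ILC3 and lymphoid tissue inducer, T cell, myeloid, epithelial and ILC1 and NK markers in the ligand values was not tested. The 5 mast cell and basophil markers summed to 23.1 to 30.9 CPM in E47-ER libraries and 37.4 to 132 CPM in GFP libraries, with Mcpt4, Fcer1a and Tpsb2 at 0.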

How the data were processed

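Counts per gene, whole numbers with no normalization, were used as deposited by the authors for 8 libraries. The submitters' processing notes name mm10 and DESeq2. An aligner, counter, strand setting or annotation was not given in the sources used here, and reads of genes that overlap on opposite strands may not be separated. GENCODE M21 (GRCm38) gave symbols, coordinates and exon lengths for 50462 of 50686 IDs. In edgeR 4.0.16 (R 4.3.3), filterByExpr (minimum count 10) kept 13644 genes. Libraries were scaled by TMM, and all 8 libraries entered a robust quasi-likelihood model with a mean for each group, with 4 residual degrees of freedom. Two-sided tests were followed by Benjamini-Hochberg adjustment over all tested genes in each of 6 comparisons, and a call is an adjusted p under 0.05. SE is the absolute log2 fold change over the square root of F. Alternatives used DESeq2 1.42.0, other scalings and filters, replicate blocks, each library left out in turn and, chosen after seeing the data, voom with quality weights (limma 3.58.1). Where a library is left out, its lone partner is taken to vary as much as libraries of other groups do. The model was tested on simulated counts. The members and gene lists were chosen with earlier results of these data known. Besides the 7 ligand genes, Tcf3, Esr1 and Id1, the text names the called genes of each list of ligands, receptors, signalling and control genes or, in a comparison with none called, its 2 most abundant. Marker genes, Ltbr, Tnfsf4, Adam17, Zfp36 and the genes called without 1 library were added with their values in view.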

Additional observations from a re-analysis of the deposited data

How the results depend on the processing

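The number of the 7 ligand genes called at 4 h (1) was 3 with DESeq2, 4 with no filter on low counts, 3 in a fit of only the 4 libraries of that time, 5 with voom, and 0 with library totals in place of TMM, with a replicate block within each time or with one across times. Same-numbered deviations correlated at 0.0237 at 4 h and -0.0901 at 16 h, so no pairing by replicate number was seen. With 2 libraries in each group, this correlation cannot decide whether the libraries were paired. With the block within each time 2 genes were called at 16 h and 3 averaged over both times, and with the block across times 4 and 4, against 3 and 4 with none. The number called at 16 h (3) was 5 with no filter, 0 with only the 4 libraries of 16 h and 1 with voom. Within E47-ER cells, 16 h against 4 h gave 1 with DESeq2, 1 with no filter and 3 with voom. Leaving out each library in turn gave 0 to 3 at 4 h, 0 to 4 at 16 h, 3 to 4 averaged over both times, 0 to 2 for the difference of effects, 0 to 3 for the times within E47-ER cells and 0 to 1 within GFP cells. The cause of these shifts was not tested. Over all tested genes DESeq2 called 122 at 4 h, 1052 at 16 h and 734 averaged over both times, against 39, 217 and 336 in edgeR. A change of sign was met 17 times, in each case for a value that was not called. With libraries left out, the ranges that crossed 0 were, for 16 h over 4 h in GFP cells, -0.40 to 0.91 for Lta (-0.066 without GFP 16 h replicate 1) and -0.44 to 0.29 for Tnfsf14 (0.17 without GFP 16 h replicate 2). For the difference of effects they were -1.13 to 0.18 for Lta, -0.21 to 0.51 for Tnfsf10 (-0.064 without GFP 16 h replicate 2) and -0.27 to 0.32 for Tnfsf11 (0.16, 0.067 and 0.026 in 3 of the fits), with Tnfsf11 also at 0.12 with library totals, 0.066 with no filter and 0.040 with voom. Tnfsf10 ran over -0.45 to 0.10 at 16 h and -0.71 to 0.0047 at 4 h, and Tnfsf11 over -0.094 to 0.50 for 16 h over 4 h in E47-ER cells. The times within E47-ER or GFP cells could not be compared with the block within each time, nor any times with only the libraries of 1 time. Tnfsf11, with 900 counts in all, had the least depth of the 7.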
